A study of Mus musculus with 4 samples.

Results

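Chromatin accessibility was examined at 8 genes of the TGF-beta pathway in T cells of a mouse colorectal tumor and of the cecum beside it. The genes were chosen by name, with earlier results of these data known, and not by a threshold on a measured value: *Tgfb1*, *Tgfbr1*, *Tgfbr2*, *Tgfbr3*, *Smad3*, *Smad7*, *Ski* and *Skil*, out of 21888 genes with a position (the protein-coding genes and *Trdc*). For each gene, the fragments with an end in the gene span or within 5 kb on either side were counted for every cell label in each library. A level is given as fragments per 1000000 fragments of the same cells (FPM). All 8 genes had at least 500 fragments in each library and were kept, as were 13381 of all genes.

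The tumors were AKP tumors, which grow from engineered mouse intestinal organoids, with loss of *Apc* and *Trp53* among their changes, after injection into the cecal wall. T cells were sorted from the tumor and from adjacent tumor-free cecum 4 weeks after transplantation, and nuclei were run on a 10x multiome assay. The mouse strain, genotype and age and the number of animals behind these libraries are not given in the sources used here. There was 1 ATAC library for each tissue, with 7155 labelled cells and 43980981 fragments for the cecum, and 8466 labelled cells and 62118519 fragments for the tumor. Tissue and library therefore cannot be told apart, and no test was made. Where values come as a pair, the cecum is first and the tumor second. Intervals are at 95% and reflect counting error only. Each cell carried 1 of 17 labels, which had been derived from its RNA. Order among labels was read over the 16 labels with at least 50 cells in each library. PD1+ CD4 cells, numbering 14 in the cecum and 616 in the tumor, were left out of it.

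TGF-beta1 is secreted in a latent form and has to be released before it acts. The active cytokine binds the type II receptor TGFBR2, which recruits and activates the type I receptor TGFBR1, and the complex phosphorylates SMAD2 and SMAD3 for transport to the nucleus with SMAD4. In the gut this pathway is known for the induction of peripheral regulatory T (Treg) cells, for Th17 differentiation together with inflammatory cytokines, and for the retention of intraepithelial T cells through CD103.

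The labels were checked against marker genes. The summed level of 6 T cell genes was between 770 and 1042 FPM over the 16 labels of both libraries, *Il10* peaked in IL-10+ Treg cells (153 and 146 FPM), and *Ikzf2*, which encodes Helios, in IL-10- Treg cells (474 and 436 FPM). *Foxp3* and *Il2ra* together were highest in IL-10- Treg cells of the cecum (286 FPM) but in Rorgt gdT cells of the tumor (262 FPM). Per kb of window, 10 epithelial genes lay between 0.221 and 0.436 FPM and 6 fibroblast genes between 0.176 and 0.382 FPM, against a median of 1.73 FPM for all genes kept. Genes of B cells (1.16 to 1.66 FPM per kb) and myeloid cells (1.51 to 2.25 FPM per kb) were nearer to that median, and their part in the results was not tested. The libraries shared 84 cell barcodes.

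*Tgfb1*, *Tgfbr2*, *Tgfbr3* and *Smad3* varied most between T cell labels, with a pattern that was alike in both libraries, whereas *Tgfbr1*, *Smad7*, *Ski* and *Skil* covered a narrower range of levels. *Tgfbr3* had the widest range, with the highest label 6.29-fold and 5.04-fold above the lowest. The same fold was 2.20 and 2.07 for *Tgfbr2*, 2.10 and 1.95 for *Smad3*, 1.94 and 2.32 for *Tgfb1*, and between 1.33 and 1.67 for the other 4 genes. On the log2 scale the median of this range was 0.83 and 0.85 over the 8 genes, 0.87 and 0.82 over all genes kept, and 0.62 and 0.59 over the 3295 genes with as many fragments as these members. The leading label was the same in both libraries, and at least 1.5-fold above all other labelled cells, for *Tgfbr3* alone, which is 1 of 8 genes against 10.1% of all genes. At any fold, *Tgfb1*, *Tgfbr2* and *Tgfbr3* kept 1 leading label across libraries (26.6% of all genes did), and *Tgfbr2*, *Tgfbr3* and *Smad3* kept 1 lowest label (20.7% of all genes did).

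Of the 128 pairs of a member and a label, 14 were at least 1.2-fold higher in the label than in all other labelled cells in both libraries (6.5% of all such pairs over genes), and 16 were at least 1.2-fold lower (9.89%). *Tgfbr3* held 6 of the higher and 6 of the lower pairs, *Tgfbr2* 3 and 3, *Smad3* 3 and 2, *Tgfb1* 1 and 3, *Tgfbr1* 0 and 2, and *Skil* 1 and 0. *Smad7* and *Ski* held none. The correlation of a gene's log2 levels over the 16 labels between the libraries was 0.94 for *Tgfbr3*, 0.89 for *Tgfbr2*, 0.84 for *Smad3*, 0.82 for *Skil* and 0.76 for *Tgfb1*, and between 0.33 and 0.43 for the other 3 genes. Its median was 0.46 over all genes kept and 0.54 over the 3295 genes with as many fragments as the members. The correlation is a description, since the points share libraries, depth and label definitions.

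**Figure D1:**
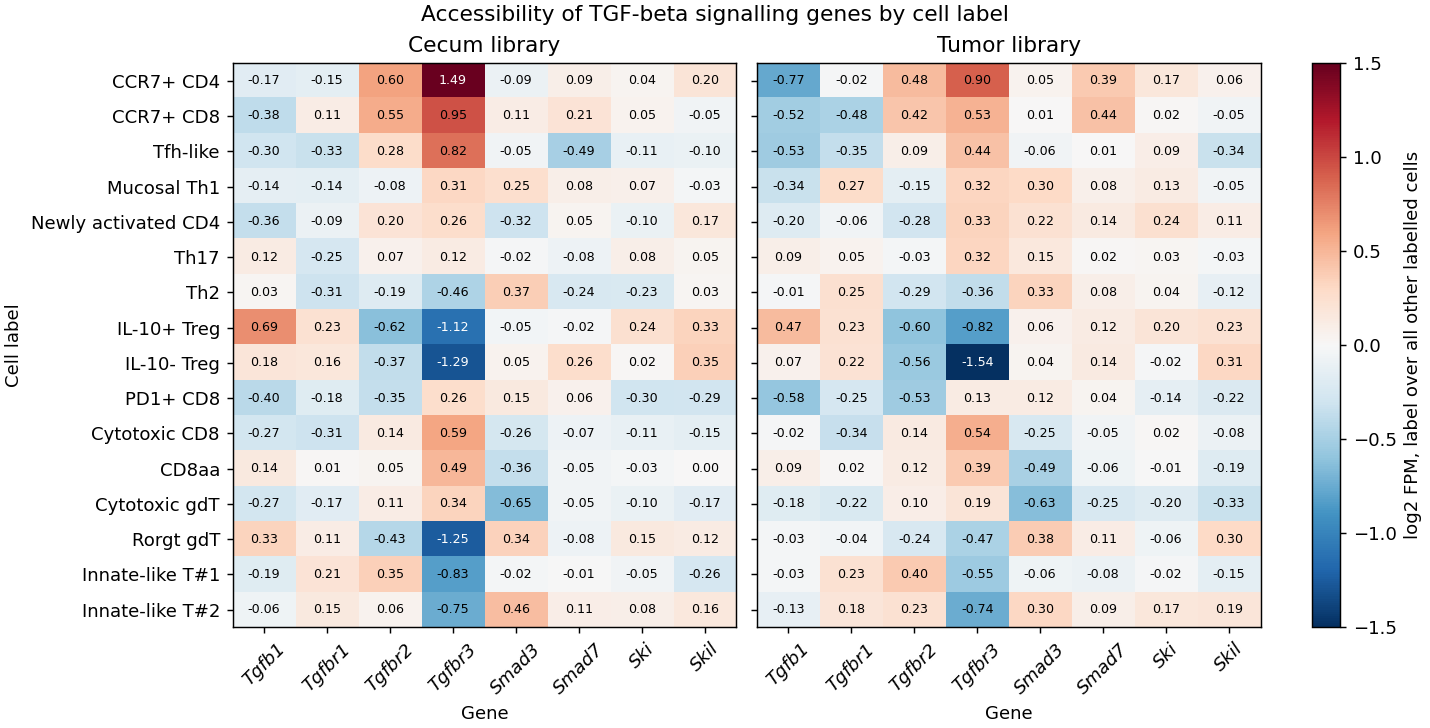
Log2 ratio of FPM in each of 16 cell labels (rows) over all other labelled cells of the same library, for the 8 genes (columns), in the cecum (left) and the tumor (right). *Tgfbr3* is the most varied column in both, from 1.49 in cecal CCR7+ CD4 cells to -1.54 in IL-10- Treg cells of the tumor, while *Ski* and *Smad7* stay near 0 in most labels.

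*Tgfb1* encodes the ligand (chr7:25687002-25705077, GRCm38). In IL-10+ Treg cells its level was 301 FPM in either library (95% intervals 287 to 315 and 281 to 323). It was highest in this label in both libraries, and the interval of its ratio to each other label in the order lay above 1-fold. In the cecum Rorgt gdT cells (249 FPM) and IL-10- Treg cells (226 FPM) came next, and in the tumor CD8aa and Th17 cells (234 FPM each). At the low end stood PD1+ CD8 cells with 155 FPM in each library, CCR7+ CD8 cells with 155 and 154 FPM, and Tfh-like cells with 165 and 153 FPM. CCR7+ CD4 cells had 130 FPM in the tumor but 179 FPM in the cecum. PD1+ CD4 cells of the tumor, which are outside the order, had 345 FPM (331 to 360), above the tumor's IL-10+ Treg cells. Relative to all other labelled cells, *Tgfb1* in IL-10+ Treg cells was higher by 0.69 on the log2 scale in the cecum (0.61 to 0.77) and by 0.47 in the tumor (0.37 to 0.58).

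Within the gene span alone these ratios were 0.50 and 0.29. Between the Treg subsets, the sequence behind the gene differed more than the span. *Tgfb1* lies on the plus strand in RefSeq, and the 5 kb after its last base held 98.6 and 106 FPM of the IL-10+ subset. The IL-10- subset had 41.7 and 60.8 FPM there, so that the log2 ratio of the former to the latter was 1.24 (0.96 to 1.53) and 0.81 (0.58 to 1.03). The gene span alone gave 0.22 (0.05 to 0.40) and 0.20 (0.01 to 0.38), and the 5 kb before it, which hold the neighbouring gene *B9d2*, gave -0.15 (-0.39 to 0.10) and 0.28 (0.02 to 0.53). The split into 3 pieces was chosen after the values of the whole window were seen. Most of these downstream fragments ended in the 500-bp tile chr7:25707501-25708000, centered 2.67 kb past the gene. The IL-10+ subset had 64.1 and 72.2 FPM in it and the IL-10- subset 29.0 and 44.6 FPM. CCR7+ CD4 cells had 4.19 FPM in the cecum (5 fragments) and 0 of their 729919 fragments in the tumor. The next gene on that side, *Ccdc97*, lies outside the window. Over the whole 5 kb behind *Tgfb1*, labels of the cecum ranged from 9.37 FPM in newly activated CD4 cells to 98.6 FPM, and labels of the tumor from 2.74 FPM in CCR7+ CD4 cells to 106 FPM, with 132 FPM in the tumor's PD1+ CD4 cells.

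**Figure D2:**
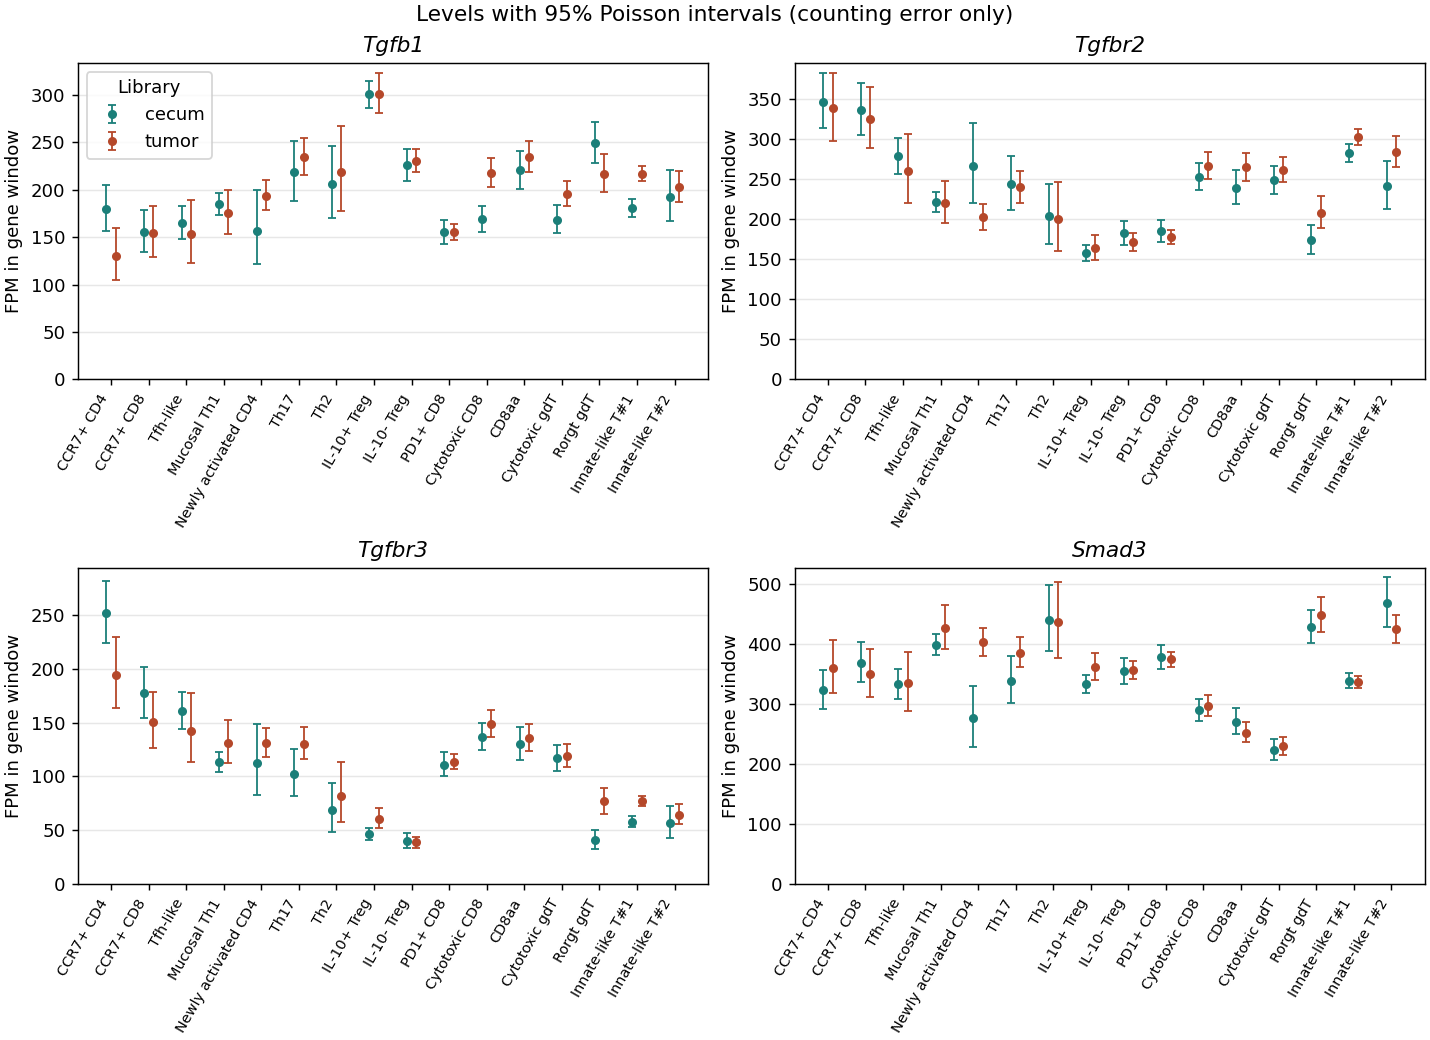
Levels (FPM, with 95% Poisson intervals for counting error only) of *Tgfb1*, *Tgfbr2*, *Tgfbr3* and *Smad3* in 16 labels of the cecum and tumor library. *Tgfb1* peaks in IL-10+ Treg cells at 301 FPM in both libraries, *Tgfbr3* falls from 251 and 195 FPM in CCR7+ CD4 cells to 39.99 and 38.6 FPM in IL-10- Treg cells, and *Smad3* is lowest in cytotoxic gdT cells at 224 and 230 FPM.

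The list of start regions used here (GRCm38.p6) gives 250 bases before to 50 bases after each start. It held 5 of the 8 genes: *Tgfb1*, *Tgfbr1*, *Tgfbr2*, *Smad3* and *Ski*. No such region was used for *Tgfbr3*, *Smad7* and *Skil*. The main start region of *Tgfbr1* held 53.2 and 50.9 FPM, that of *Tgfb1* 39.6 and 39.3 FPM, *Smad3* 18.1 and 16.1 FPM, *Tgfbr2* 17.0 and 17.1 FPM, and *Ski* 3.52 and 2.85 FPM. The median of 32851 listed regions was 0.205 and 0.209 FPM. For *Ski*, on the minus strand, the tile chr4:155223001-155223500 just upstream of the listed region held 105 and 94.3 FPM. At the start of *Tgfbr2* the IL-10+ subset of Treg cells had 15.1 and 17.2 FPM and the IL-10- subset 16.3 and 16.2 FPM, and the log2 ratio of its highest to its lowest label was 1.15 (-0.15 to 2.48) and 0.96 (-0.33 to 2.63), too wide an interval to show or exclude a difference. The sequences of the 4 listed starts with the most fragments are shown, and they differ in base composition. Each is written 5′ to 3′ on the strand of the gene, and capitals mark GC boxes (GGGCGG) and CCAAT boxes (CCAAT) on either strand, which do not overlap here.
Tgfb1, chr7:25686752-25687051, plus strand: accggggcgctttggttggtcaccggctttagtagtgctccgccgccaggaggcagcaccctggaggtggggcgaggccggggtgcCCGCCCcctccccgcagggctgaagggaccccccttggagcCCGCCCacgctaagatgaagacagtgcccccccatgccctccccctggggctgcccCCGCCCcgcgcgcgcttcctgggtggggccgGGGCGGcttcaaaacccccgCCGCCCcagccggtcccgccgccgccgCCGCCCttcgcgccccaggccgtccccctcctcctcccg
Tgfbr1, chr4:47352972-47353271, plus strand: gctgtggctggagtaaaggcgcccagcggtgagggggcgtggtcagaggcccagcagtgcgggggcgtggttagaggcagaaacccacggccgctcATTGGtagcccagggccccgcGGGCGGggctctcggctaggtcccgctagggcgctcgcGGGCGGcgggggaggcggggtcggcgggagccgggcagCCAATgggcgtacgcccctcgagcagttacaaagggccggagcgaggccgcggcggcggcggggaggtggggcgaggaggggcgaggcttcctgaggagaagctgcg
Tgfbr2, chr9:116175314-116175613, minus strand: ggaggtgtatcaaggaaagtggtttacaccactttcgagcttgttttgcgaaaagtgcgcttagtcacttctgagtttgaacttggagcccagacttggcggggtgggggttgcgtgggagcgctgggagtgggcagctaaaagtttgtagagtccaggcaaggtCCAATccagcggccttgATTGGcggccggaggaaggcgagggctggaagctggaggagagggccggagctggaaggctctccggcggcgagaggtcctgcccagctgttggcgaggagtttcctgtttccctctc
Smad3, chr9:63757945-63758244, minus strand: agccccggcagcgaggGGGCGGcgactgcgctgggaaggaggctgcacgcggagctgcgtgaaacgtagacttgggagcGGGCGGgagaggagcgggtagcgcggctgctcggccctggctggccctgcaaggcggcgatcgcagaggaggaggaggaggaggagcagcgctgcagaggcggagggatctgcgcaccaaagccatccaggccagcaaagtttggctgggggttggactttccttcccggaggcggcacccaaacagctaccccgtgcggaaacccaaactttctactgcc
GC boxes numbered 6 in *Tgfb1*, 2 in *Tgfbr1*, 2 in *Smad3* and 0 in *Tgfbr2*, and CCAAT boxes 2 in *Tgfbr1*, 2 in *Tgfbr2* and 0 in the other 2. Of all listed regions, 35.7% hold a GC box and 37.4% a CCAAT box. The share of G and C was 77.0% in *Tgfb1*, 74.7% in *Tgfbr1*, 67.7% in *Smad3* and 59.0% in *Tgfbr2*, with a median of 52.7% over all regions. A short element that SMAD3 and SMAD4 can bind, CAGAC, occurred once in *Tgfbr2* and in none of the other 3 (49.6% of all regions hold it), while the palindrome GTCTAGAC (0.213%) and the AP-1 site TGANTCA (7.81%) occurred in none of the 4. These matches, on either strand, are descriptions of letters and not of binding.

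*Tgfbr1* encodes the type I receptor, a serine/threonine kinase (chr4:47353222-47414926). Its level in the cecum ran from 82.1 FPM in Tfh-like cells to 117 FPM in IL-10+ Treg cells. Its highest level in the tumor was in mucosal Th1 cells (120 FPM) and its lowest in CCR7+ CD8 cells (72.1 FPM). Of the 15 labels below the highest, 7 and 9 did not differ from it beyond counting error, and no pair of neighbours in either order differed. When each cell was given equal weight, the log2 ratio of mucosal Th1 cells of the tumor over all others was -0.0562 instead of 0.27. A single 500-bp tile at the gene start held 55.8% and 55.3% of its fragments.

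*Tgfbr2*, the ligand-binding type II receptor (chr9:116087695-116175363), was highest in the labels named for CCR7. CCR7+ CD4 cells had 347 FPM (314 to 382) and 338 FPM (297 to 383). CCR7+ CD8 cells followed with 336 and 325 FPM, within counting error of CCR7+ CD4 cells, and then innate-like T#1 cells with 283 and 303 FPM, which in the tumor were also within counting error of CCR7+ CD4 cells. Counted only within 1 kb of either gene end, the log2 ratio of CCR7+ CD4 cells over all other cells was 0.17 and 0.21, below 1.2-fold, against 0.60 and 0.48 in the whole window, and with equal weight for each cell it was 0.75 and, in the tumor, 0.22. IL-10+ Treg cells had the lowest level in both libraries (158 and 164 FPM). IL-10- Treg cells (182 and 171 FPM) and PD1+ CD8 cells (185 and 177 FPM) were also at least 1.2-fold below the other cells in each library. Both Treg labels together had 166 and 169 FPM, against 249 and 256 FPM in all other labels (log2 -0.58, -0.66 to -0.50, and -0.60, -0.68 to -0.52).

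*Tgfbr3* encodes betaglycan, a coreceptor without kinase activity that presents the ligand to TGFBR2 (chr5:107106567-107289629). CCR7+ CD4 cells had 251 FPM (224 to 282) and 195 FPM (164 to 229), above every other label of the order in both libraries. CCR7+ CD8 cells were next in the order with 177 and 151 FPM. PD1+ CD4 cells of the tumor, which are outside the order, had 165 FPM (155 to 175) and did not differ from CCR7+ CD4 cells beyond counting error. IL-10- Treg cells were lowest with 39.99 and 38.6 FPM, and IL-10+ Treg cells had 46.4 and 60.9 FPM. In the cecum these labels did not differ beyond counting error (log2 0.21, -0.10 to 0.54, IL-10+ over IL-10-). Low levels were also found in Rorgt gdT cells (40.7 and 76.7 FPM), innate-like T#1 cells (57.6 and 77.0 FPM), innate-like T#2 cells (56.6 and 64.3 FPM) and Th2 cells (68.6 and 82.0 FPM). Each of them was at least 1.2-fold below the other cells in both libraries. Conventional CD8 cells lay between these ends, with 136 and 149 FPM in cytotoxic CD8 cells and 111 and 114 FPM in PD1+ CD8 cells. Per kb of window *Tgfbr3* had only 0.487 and 0.546 FPM over all labelled cells. The median of all genes kept was 1.73 FPM per kb, and 10 epithelial genes lay between 0.221 and 0.436. The low labels of *Tgfbr3*, on which its wide range and its ratio between Treg subsets rest, were below its level over all cells. The part of background fragments in these values was not tested. The ratio of both Treg labels together to all other labels was -1.27 (-1.42 to -1.12) and -1.33 (-1.48 to -1.18) on the log2 scale. Of all genes, 10.8% were at least 1.2-fold lower in both Treg labels together in both libraries, and *Tgfbr2* and *Tgfbr3* were the 2 members among them.

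The lead of CCR7+ CD4 cells at *Tgfbr3* was found in the body of the gene more than at its ends. Counted only within 1 kb of either gene end, their log2 ratio over all other cells was 0.49 and, in the tumor, -0.63, against 1.49 and 0.90 in the whole window. The end-window ratios come without an interval, and the tumor value rests on a label with only 729919 fragments in all. The tile in which CCR7+ CD4 cells were most open, chr5:107201501-107202000, lies 95.2 kb from the lower end of the span. It held 22 of their fragments in the cecum (18.4 FPM, against 2.15 FPM in all other cells) and 9 in the tumor (12.3 against 1.25 FPM). This tile was picked for its value and carries no test.

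*Smad3*, which encodes a receptor-activated transcription factor (chr9:63646766-63757994), was high in innate-like T#2, Th2 and Rorgt gdT cells in both libraries. Innate-like T#2 cells had 469 and 425 FPM, Th2 cells 441 and 437 FPM, and Rorgt gdT cells 429 and 449 FPM. These 3 labels, and mucosal Th1 cells of the tumor (428 FPM), did not differ from the highest label of their library beyond counting error. Within 1 kb of the gene ends, however, the log2 ratio of innate-like T#2 cells over all others in the cecum was -0.20, against 0.46 in the whole window. Cytotoxic gdT cells were lowest in both libraries (224 FPM, 207 to 242, and 230 FPM, 216 to 245), followed by CD8aa cells (271 and 253 FPM). Thus *Smad3* was near its highest in 1 label of gamma-delta cells and at its lowest in another. The tile with the most fragments, chr9:63706501-63707000 in the gene body, had 37.0 and 32.5 FPM in Rorgt gdT cells and 6.98 and 10.3 FPM in cytotoxic gdT cells. The window overlaps the end of the neighbouring gene *Aagab*.

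*Smad7* encodes the inhibitory SMAD that is itself induced by the pathway and acts on the receptors (chr18:75367365-75395935). In the cecum its levels ranged from 170 FPM in Tfh-like cells to 279 FPM in IL-10- Treg cells, and from 206 FPM in cytotoxic gdT cells to 325 FPM in CCR7+ CD8 cells in the tumor. The order of labels differed between the libraries. *Ski* and *Skil* encode the nuclear corepressors SKI and SnoN, which bind SMADs and restrain transcription. *Ski* (chr4:155154075-155222535) had the highest level of the 8 genes in the whole window (417 and 403 FPM over all labelled cells), but per kb *Tgfb1* was highest (7.16 and 7.86 FPM per kb) and *Tgfbr3* lowest (0.487 and 0.546 FPM per kb). Over labels, *Ski* ranged from 345 to 482 FPM and from 354 to 471 FPM. *Skil* (chr3:31095058-31122923) had 252 and 261 FPM in both Treg labels together, against 193 and 211 FPM in all other labels (log2 0.38, 0.31 to 0.45, and 0.30, 0.24 to 0.37). In the tumor, however, its highest label was Rorgt gdT (267 FPM), with IL-10- Treg cells at 264 FPM and IL-10+ Treg cells at 253 FPM, and 4 labels in each library did not differ from the highest beyond counting error. *Skil* was the 1 member of 8 that was at least 1.2-fold higher in both Treg labels together in each library, as 6.35% of all genes were. This pooled comparison, and the pairs of member and label above, were added after the data were seen. For *Tgfb1* the same ratio was 0.59 and 0.23. A single tile 0.31 kb outside the span held 53.0% and 44.3% of the fragments of *Skil*. For *Ski*, 1 tile 0.72 kb outside the span, on the side where the gene starts, held 25.2% and 23.4% of its fragments.

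IL-10+ and IL-10- Treg cells are the Treg subsets that the study set apart. *Tgfb1* exceeded 1.2-fold in favor of the IL-10+ subset in both libraries, which is 1 of 8 members against 4.81% of all genes. The IL-10+ subset had 301 and 301 FPM and the IL-10- subset 226 and 230 FPM (log2 0.41, 0.28 to 0.54, and 0.39, 0.26 to 0.51). None of the 8 members was 1.2-fold or more lower in both libraries, as 9.38% of all genes were. *Ski* was higher in the IL-10+ subset by a smaller margin (0.19, 0.10 to 0.29, and 0.21, 0.11 to 0.31). For *Tgfbr3* the ratio was 0.21 (-0.10 to 0.54) and 0.66 (0.36 to 0.95). In the cecum *Tgfbr2* and *Smad7* were lower in the IL-10+ subset (-0.21, -0.36 to -0.05, and -0.26, -0.38 to -0.13), while their tumor ratios were -0.06 (-0.23 to 0.10) and -0.01 (-0.14 to 0.12). With equal weight for each cell, the cecal ratio of *Tgfbr2* was 0.00743. The ratios of *Tgfbr1*, *Smad3* and *Skil* were between -0.09 and 0.05, with intervals that included 0 in both libraries. At the *Smad3* start region printed above, however, the IL-10+ subset had 26.8 and 25.3 FPM and the IL-10- subset 18.995 and 17.6 FPM (log2 0.50, 0.05 to 0.96, and 0.53, 0.06 to 0.98). Within the gene span alone the *Tgfb1* ratio fell below 1.2-fold, as given above, and within 1 kb of either gene end it was 0.06 and 0.34. At the *Tgfb1* start region the IL-10+ subset had 52.7 and 60.1 FPM and the IL-10- subset 57.7 and 45.6 FPM (log2 -0.13, -0.40 to 0.15, and 0.40, 0.11 to 0.68).

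**Figure D3:**
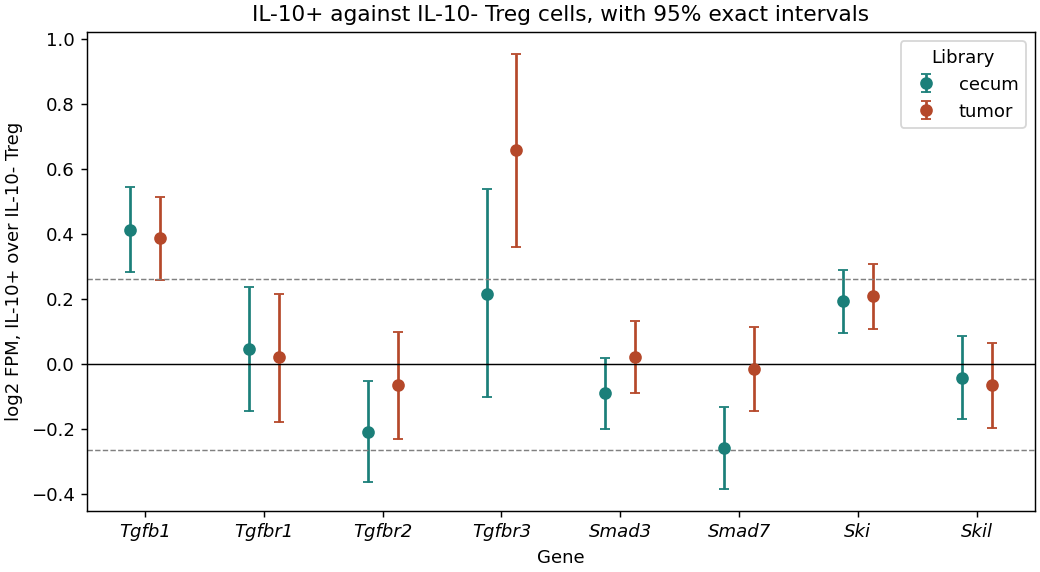
Log2 ratio of FPM in IL-10+ over IL-10- Treg cells for the 8 genes in the cecum and the tumor, with 95% exact intervals for counting error. Dashed lines mark a 1.2-fold difference, which *Tgfb1* exceeds in both libraries (0.41 and 0.39) and *Tgfbr3* in the tumor (0.66).

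By the median over labels, tumor and cecum differed by less than 1.2-fold for all 8 genes. The median over 16 labels of the log2 ratio of tumor over cecum was 0.16 for *Tgfbr3*, 0.08 for *Smad7*, 0.05 for *Tgfb1*, 0.04 for *Skil*, 0.02 for *Smad3*, -0.005 for *Ski* and -0.01 for both *Tgfbr1* and *Tgfbr2*. No member passed 1.2-fold by this median in either direction, against 2.25% of all genes higher and 0.486% lower in the tumor. The median of all genes was between -0.02 and 0.01 in each of these 16 labels. Single labels differed by more: *Tgfb1*, *Tgfbr1* and *Tgfbr3* were 1.2-fold or more apart, with an interval that excluded 0, in opposite directions in different labels, which is 3 of 8 members against 17.3% of all genes. Such a call is easier to meet with more fragments. The members had 4137 or more in each library, against a minimum of 500 for all genes, and no share over genes of like depth was taken. *Tgfbr3* was higher in the tumor in 12 of 16 labels, with an interval above 0 in 4 and below 0 in 1, and *Smad7* in 13 of 16, with 5 above and 1 below.

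Among the 16 labels of the order, the largest ratio was that of *Tgfbr3* in Rorgt gdT cells, which had 40.7 FPM (88 fragments) and 76.7 FPM (163 fragments), a log2 ratio of 0.91 (0.53 to 1.30). The fragments per cell of this label were 4936 and 7786, and the part of this in the result was not tested. In both libraries its *Tgfbr3* level was below that of all labelled cells (94.1 and 105 FPM), and the part of background fragments was not tested either. *Tgfbr3* was also higher in the tumor in innate-like T#1 cells (57.6 against 77.0 FPM, 0.42, 0.26 to 0.58) and IL-10+ Treg cells (46.4 against 60.9 FPM, 0.39, 0.10 to 0.68), and lower in CCR7+ CD4 cells (251 against 195 FPM, -0.37, -0.67 to -0.08). In IL-10- Treg cells the ratio was -0.05 (-0.38 to 0.28). *Tgfb1* did not differ detectably between tissues in IL-10+ Treg cells (0.004, -0.12 to 0.13) or IL-10- Treg cells (0.03, -0.10 to 0.17). It was higher in the tumor in cytotoxic CD8 cells (169 against 218 FPM, 0.37, 0.21 to 0.52). *Smad3* was higher in newly activated CD4 cells of the tumor (276 against 403 FPM, 0.54, 0.27 to 0.83), a label with 77 cells in the cecum. In that label *Tgfbr2* was lower in the tumor (267 against 203 FPM, -0.40, -0.69 to -0.10). *Smad7* was higher in Tfh-like cells of the tumor (170 against 243 FPM, 0.51, 0.22 to 0.80).

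**Figure D4:**
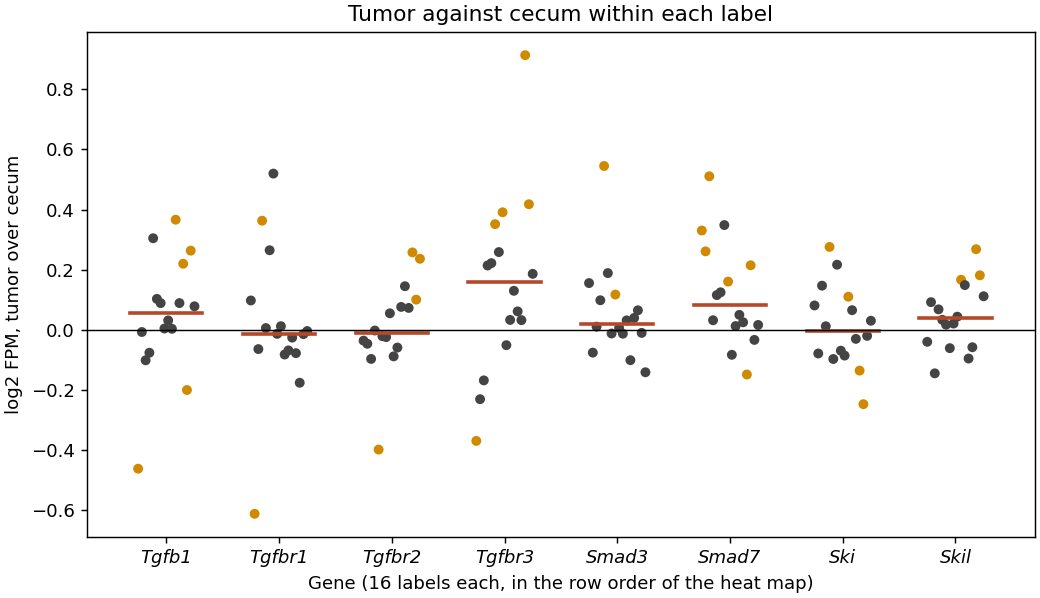
Log2 ratio of FPM in the tumor over the cecum within each of 16 labels (points) for the 8 genes, with the median over labels as a bar. Orange points have a 95% interval that excludes 0, and the highest point is *Tgfbr3* in Rorgt gdT cells at 0.91.

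Tiles of 500 bp placed the differences within each window. Among tiles with at least 40 fragments in all and 20 of a label in each library, the one with the largest ratio of that label over all other cells, by the smaller of the values in the libraries, was taken for each gene. For *Tgfbr2* this was chr9:116084501-116085000, 2.94 kb outside the span on the side away from the start. Innate-like T#1 cells had 21.3 FPM there in the cecum (172 fragments), against 4.79 FPM in all other cells, and 17.1 FPM in the tumor (214 fragments), against 4.09 FPM, a log2 ratio of 2.15 (1.84 to 2.47) and 2.07 (1.78 to 2.35). The start tile of *Tgfbr2* had 30.1 and 33.4 FPM in IL-10+ Treg cells and 29.3 and 34.3 FPM in CCR7+ CD4 cells, and neither label differed there from all other cells beyond counting error.

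The same rule gave a tile 0.67 kb behind *Tgfb1* for IL-10+ Treg cells (log2 1.24 and 1.23), and a tile of *Smad3* at chr9:63730501-63731000 for innate-like T#1 cells (2.01 and 1.96). For *Tgfbr1* it gave a tile 4.97 kb before the span, also for innate-like T#1 cells (2.31 and 1.56), with 30 and 49 fragments. At *Tgfbr3* the tile was at chr5:107177001-107177500 for cytotoxic gdT cells (1.15 and 1.06), and at *Smad7* it lay 4.11 kb outside the span for IL-10- Treg cells (1.46 and 1.19). The tiles of *Ski* and *Skil* were most open in innate-like T#2 cells, by 0.88 and 0.92 and by 0.93 and 0.82. Since these tiles were picked for their ratio, the values describe them and support nothing further.

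**Figure D5:**
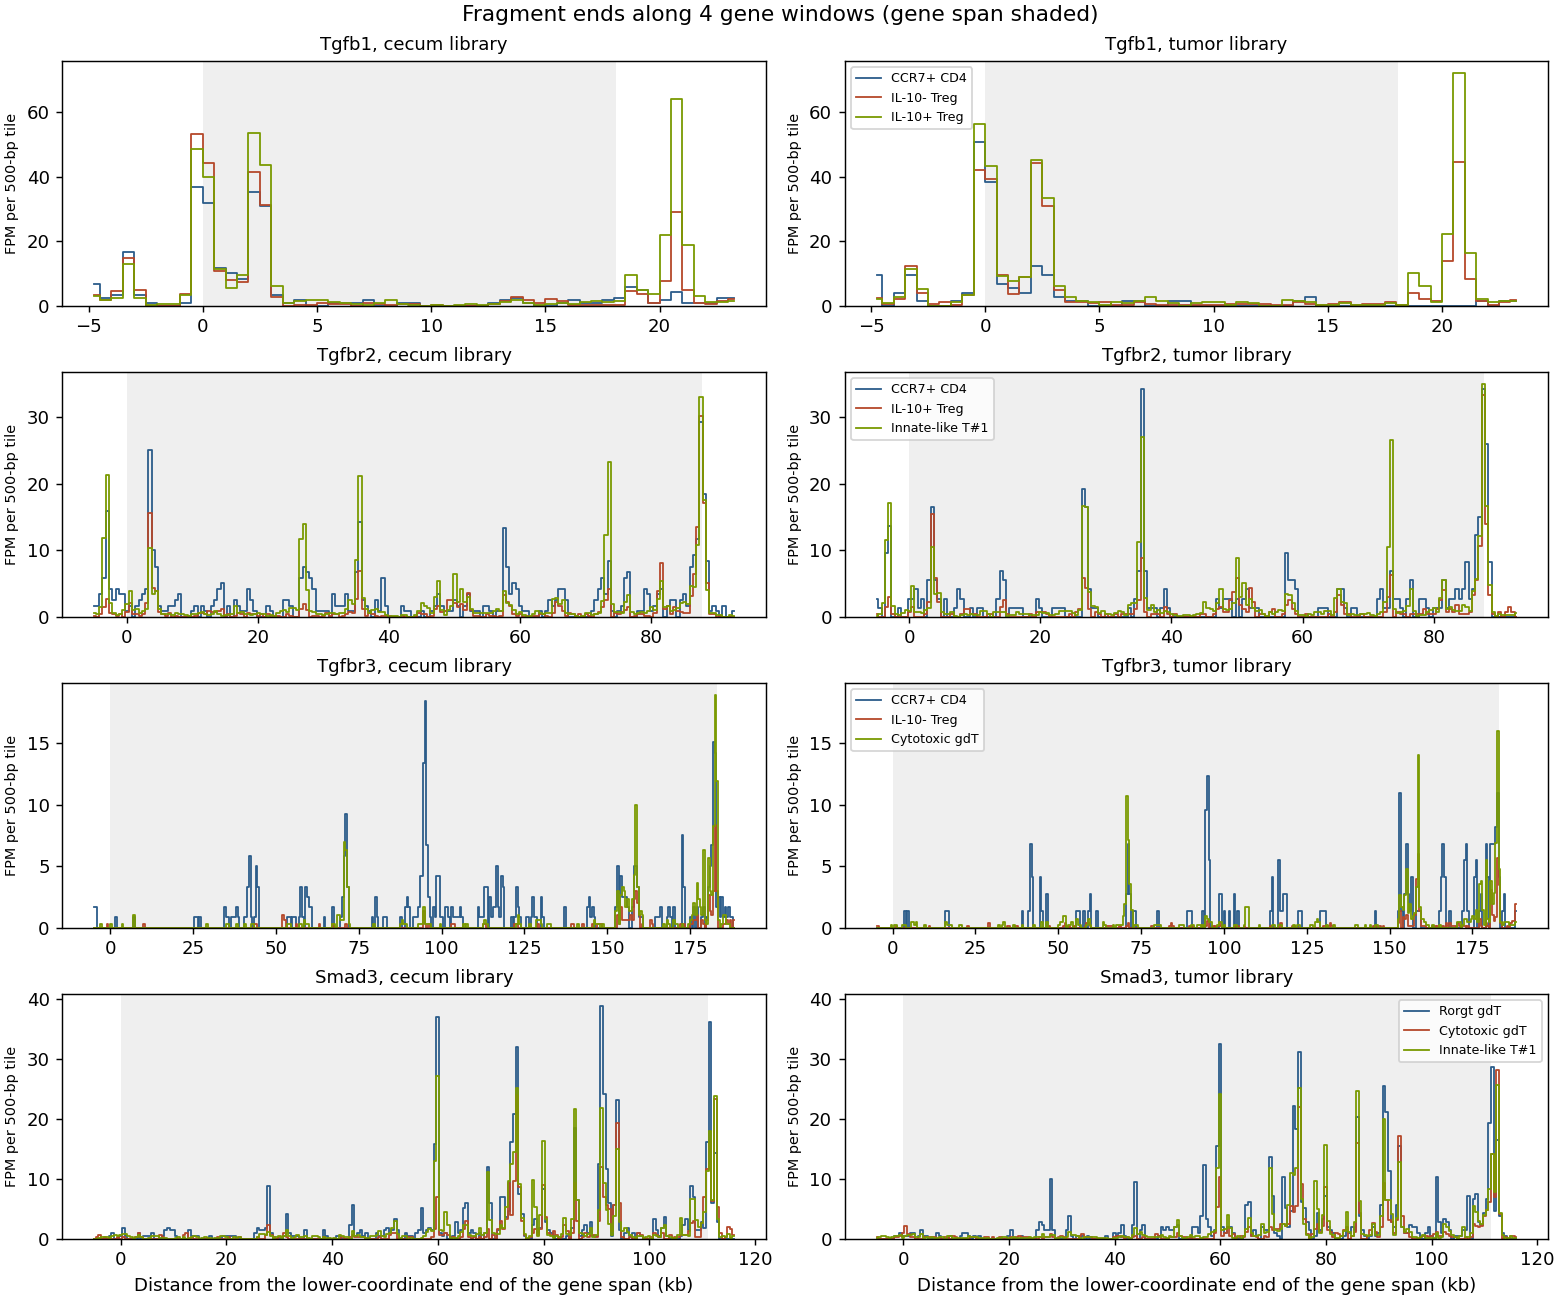
FPM in 500-bp tiles along the windows of *Tgfb1*, *Tgfbr2*, *Tgfbr3* and *Smad3* (rows) for 3 labels each, in the cecum (left) and the tumor (right), by distance in kb from the lower-coordinate end of the gene span, which is shaded. The peak behind *Tgfb1* reaches 64.1 and 72.2 FPM in IL-10+ Treg cells, and the peak at the right end of *Tgfbr2*, where the gene starts, is of like height in the labels drawn.

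A list of 42 other pathway genes was counted in the same way, of which 36 had enough fragments. None was 1.2-fold or more higher or lower in the tumor by the median over labels. The same label led in both libraries, at least 1.5-fold above all other labelled cells, for 10 of 36, against 10.1% of all genes. Between the Treg subsets, 5 of 36 were 1.2-fold or more higher in the IL-10+ subset in both libraries (4.81% of all genes) and 5 were lower (9.38% of all genes), and the medians of the 36 were 0.03 and 0.12, against 0.02 and 0.02 over all genes. The 3 lowest were *Itgb8*, *Nedd4l* and *Lrrc32*. *Itgb8*, the integrin beta chain that releases TGF-beta from its latent form, had 39.9 and 41.4 FPM in the IL-10+ subset and 115 and 123 FPM in the IL-10- subset (log2 -1.53, -1.78 to -1.28, and -1.57, -1.87 to -1.28). *Lrrc32*, which encodes the surface anchor GARP for latent TGF-beta, had 36.8 and 43.3 FPM in the former and 66.65 and 70.3 FPM in the latter (log2 -0.86 and -0.70). Both had their highest level over labels in IL-10- Treg cells of each library, the subset in which the ligand gene *Tgfb1* was lower. *Nedd4l*, a ubiquitin ligase that acts on activated SMADs, had ratios of -0.71 and -1.07. The 3 highest were *Zeb2*, a SMAD-binding repressor (0.67 and 0.54), *Smurf2*, a ubiquitin ligase for receptors and SMADs (0.55 and 0.30), and *Furin*, the protease that cuts the TGF-beta precursor (0.28 and 0.41). *Itgb8* and *Zeb2* are also in gene lists that the study derived for these subsets, so their direction is not independent evidence. The study's list for human IL-10+ Treg cells also holds *FURIN*.

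By group, and beside the same shares of 4.81% higher and 9.38% lower over all genes, 2 of 7 ligand and release genes were lower and 1 was higher in the IL-10+ subset, 1 of 8 receptors was lower, 1 of 5 SMADs was lower, and 4 of 15 cofactors and inhibitors were higher and 1 was lower. *Itgae*, which encodes the CD103 alpha chain and is a target of the pathway, had ratios of 0.17 and 0.16. Between tissues the highest medians over labels were 0.22 for *Acvr1*, 0.20 for *Lrrc32* and 0.15 for *Ldlrad4*, and the lowest were -0.10 for each of *Bmpr2*, *Acvrl1* and *Ppm1a*.

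The genes whose pattern over the 16 labels was most like that of a member were named by the smaller of the Pearson correlations in the libraries. They were *Fnbp1*, *Tmem135* and *Sdc4* for *Tgfb1* (0.76 and 0.81 for *Fnbp1*), *Slc44a2*, *Lbp* and *Asph* for *Tgfbr2* (0.85 and 0.84 for *Slc44a2*), *Dync1li2*, *Cdkl4* and *Syce2* for *Tgfbr3* (0.83 and 0.76 for *Dync1li2*), and *Klf4*, *Epas1* and *Lif* for *Smad3* (0.84 and 0.79 for *Klf4*). For the flatter genes they were *Sbf2*, *Tmem95* and *Kctd11* for *Tgfbr1*, *Gm40011*, *Zyg11b* and *Sdk2* for *Smad7*, *Ppp3cb*, *Ifrd1* and *Mon1a* for *Ski*, and *1110059E24Rik*, *Gprc5a* and *Trp53i11* for *Skil*, with correlations between 0.63 and 0.81. All these genes were picked for the highest correlation among all genes kept. For *Tgfbr1*, *Smad7* and *Ski* it exceeded the member's own correlation between libraries (0.33, 0.43 and 0.38), so these matches show little. Among the members, *Tgfbr2* and *Tgfbr3* ran together over the 16 labels (0.76 and 0.56), and *Tgfb1* ran opposite to both *Tgfbr2* (-0.67 and -0.48) and *Tgfbr3* (-0.67 and -0.62). The correlations of the receptor gene *Tgfbr1* were -0.58 and -0.59 with *Tgfbr3*, -0.23 and -0.38 with *Tgfbr2*, and 0.44 and 0.51 with *Tgfb1*. Since no neighbouring labels of *Tgfbr1* differed beyond counting error, these values are weakly founded. PD1+ CD4 cells of the tumor, outside these labels, were high at *Tgfb1*, *Tgfbr2* and *Tgfbr3* alike (345, 293 and 165 FPM). All labelled cells of the tumor had 221, 244 and 105 FPM. These correlations are descriptions over 16 labels that share libraries and depth.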

How the data were processed

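The ATAC fragments of T cells from 1 cecum and 1 tumor library were analysed. RNA libraries were not used here. Per the file headers, the authors aligned reads to mm10 with Cell Ranger ARC 2.0.0, and a line in the deposited files holds a fragment, its barcode and a raw count of read pairs (4.29 and 3.11 per fragment). Labels are those the authors transferred from RNA clusters after filters on both assays. Labelled cells held 66.2% and 64.3% of fragments, with a median of 4374 and 5846 per cell. Doublets were not called, and their removal before deposit was not given in the sources used here.

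Each fragment was counted once per window and summed over the cells of a label. Gene spans came from RefSeq (GRCm38.p6, the build of mm10), without exons. Level intervals are exact Poisson, ratio intervals exact conditional (Clopper-Pearson), and a count of 0 took a floor of 3 counts. With 1 library per tissue no test was run. Shares called were taken over 13381 genes with at least 500 fragments in each library. The counting was tested on simulated data. An item of the tumor model and a marker list are not reported here. The members and lists were chosen with earlier results of these data known. The named genes are the 8 members, the 3 highest and 3 lowest of the pathway list for each contrast, and the 3 genes most like each member. Alternatives changed the window, cells, scaling, label and gene minimums. Scripts ran on Python 3.11.15 with matplotlib 3.10.9, numba 0.67.0, scipy 1.17.1, pandas 2.3.3 and numpy 2.4.6.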

Additional observations from a re-analysis of the deposited data

Results flagged for a closer look

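In 3 genes the tumor over cecum ratio was 1.2-fold or more, with an interval excluding 0, in opposite directions in different labels, as it was in 17.3% of all genes, a share added after the data were seen. That share was not taken over genes with as many fragments as the members, which the call favors. The difference between labels itself was not tested. *Tgfb1* was 0.37 in cytotoxic CD8 cells and 0.26 in innate-like T#1 cells but -0.46 in CCR7+ CD4 cells. *Tgfbr1* was 0.36 in mucosal Th1 cells and -0.61 in CCR7+ CD8 cells. *Tgfbr3* was 0.91 in Rorgt gdT cells, 0.42 in innate-like T#1 cells, 0.39 in IL-10+ Treg cells and 0.35 in Th17 cells but -0.37 in CCR7+ CD4 cells. The fragments per CCR7+ CD4 cell were 9543 (cecum) and 4451 (tumor), and the part of this in these values was not tested.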

How the results depend on the processing

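No paired analysis was possible because each tissue has 1 library. Of 280 values of single members under other settings, 232 moved by less than their interval or spread, 44 moved by more and 4 reversed. Under windows of 1 kb around gene ends, *Tgfbr3* in CCR7+ CD4 cells of the tumor was -0.63, *Smad3* in innate-like T#2 cells of the cecum was -0.20, no member kept a leading label 1.5-fold above the others (0 of 8), and the 1 member higher in IL-10+ Treg cells was *Smad3* instead of *Tgfb1*. The ratios under these windows come without an interval. With the mean over cells, *Tgfbr1* in mucosal Th1 cells of the tumor was -0.0562, *Tgfbr2* in IL-10+ over IL-10- Treg cells of the cecum was 0.00743, and 2 members (*Tgfb1* and *Tgfbr3*) had a leading label 1.5-fold above the others. The count higher in IL-10+ Treg cells was 0 for the gene span without flanks and 2 (*Tgfb1* and *Tgfbr3*) without cells above 3 times the median. A minimum of 1000 fragments per cell, scaling to fragments near gene ends and counting each end changed none of the 5 counts of members. Labels with at least 100 cells, run for the leading label alone, and log2(FPM + 1), run for the Treg and tissue counts alone, changed none of those. The cause was not tested. With a minimum of 50 or 2000 fragments per gene instead of 500, the share of all genes with a leading label was 13.1% or 5.63%, that higher in IL-10+ Treg cells 5.73% or 4.47%, that lower 14.7% or 4.11%, that higher in the tumor 6.67% or 0.383%, and that lower 2.05% or 0.124%. Depth limits the small labels: Th2 cells had 58 cells in the tumor, and a tile value there rests on few fragments.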
